A study of Saccharomyces cerevisiae with 5 samples.

Results

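The strains described here each lack 1 copy of a gene of the mitochondrial respiratory chain or the ATP synthase, and were followed in 2 pools of heterozygous yeast deletion strains. They were taken by gene symbol, as COX, QCR, ATP, SDH, COQ, CBP, CYT or CYC with a number and an optional letter, or RIP1. This gave 70 genes with 72 tag sets out of 5325 genes with 5444 tag sets, since ATP4 and ATP11 each have 2, and 1 further symbol of the pattern was left out. A tag set stands for 1 strain and holds a pair of DNA barcodes, so the 72 strains have 144 tags. The tags stand in 2 blocks on the array, called first and second here, and which block holds the upstream tags is not given in the labels. The symbols were those of the array platform, and all 70 were found in the gene table used for names.

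Budding yeast feeds electrons to coenzyme Q from succinate through complex II and from NADH through single-protein dehydrogenases, having no proton-pumping complex I. Complex III passes them from coenzyme Q to cytochrome c, complex IV passes them on to oxygen, and the ATP synthase, or complex V, uses the proton gradient that complexes III and IV build. Strains without respiration still grow on glucose by fermentation, and many of the assembly factors named below were first found through mutants that cannot use non-fermentable carbon sources.

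Barcodes of the pooled strains were measured on 5 two-colour arrays: 3 with Pool A in both channels (Pool A self-self, replicates 1 to 3), 1 with Pool B in both (Pool B self-self), and 1 with Pool A in the Cy3 and Pool B in the Cy5 channel (the mixed array). In all 3 groups the strains were heterozygous knockouts grown on rich YPD agar, pooled and frozen, no drug or other agent being named in the labels, and their barcodes were amplified by 50 cycles of PCR from genomic DNA. Per the series design, 94 strains were diluted further in Pool A than in Pool B, by 0.33 to 5 log2 units or entirely, and all others were equal. Which strains these were is not given in the labels. By its title the series concerns the statistics of such arrays. A ratio of barcode DNA cannot tell the number of cells of a strain apart from how well its barcode was amplified, labelled and hybridised.

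Values are log2 ratios centred on each array's median over the named spots. A strain's value is the mean of its 2 tags, and a difference is its value on the mixed array less its Pool A self-self mean unless stated otherwise. Positive differences are taken as more signal from Pool B, which is likely only: the labels do not state the direction, and of the strains whose tags both lay 2 log2 units or more from the Pool A mean, 14 were on the positive and 2 on the negative side, while the design has strains lower in Pool A. Calls are Benjamini-Hochberg adjusted p under 0.05 over all 5444 strains (or 10888 tags) in limma, and the value after ± is the fit's SE beside a difference and the SD beside a Pool A mean. Only the 3 Pool A arrays were replicated, and the fit takes its spread from them. Their SD had a median of 0.15 over the 72 strains and 0.15 over all. No label says that these arrays came from separate cultures, so the p-values measure spread that may be technical. The mixed and the Pool B arrays stood alone in their groups. The Pool B array also has a title date of its own, so its pool and that date cannot be told apart. On that array, where both channels held 1 pool, the same test called 21.9% of all strains, so p-values that rest on 1 array may be too small.

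On the mixed array none of the 72 respiratory strains was called positive and 8 were called negative, against 1.54% positive, 5.84% negative and 7.38% in all over all strains. The 8 were SDH9, QCR6, CBP1, CBP6, COX14, ATP5, COQ6 and tag set 1 of ATP11, with differences from -0.81 (ATP11) to -0.65 (CBP1). They were spread over the complexes: complex II gave 1, complex III subunits 1, the CBP genes 2, complex IV assembly 1, ATP synthase subunits 1, its assembly factors 1 and coenzyme Q synthesis 1. In none of them were both tags called. Of 11 other fits the call held in 9 for the ATP11 tag set, 7 for CBP6 and 6 for QCR6. It held in 5 for SDH9 and for COQ6, in 4 for CBP1 and for ATP5, and in 3 for COX14. Against a reference of all 4 self-self arrays none of the 8 remained, where 0.606% of all strains were called. Without Pool A replicate 2 only the ATP11 tag set remained, where 3.49% of all strains were called. Without centring 3 of the 8 remained, beside 4.17% of all strains called. With arrays scaled to one spread or quantile normalized 2 remained, beside 4.15% and 5.22% of all strains called.

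Over the 72 strains the median difference was -0.15 (quartiles -0.46 and 0.039), against -0.064 (quartiles -0.29 and 0.15) over all strains. Of the 72, 51 lay below 0 and 21 above, where 58% and 42% of all strains did. The mixed array read below all 3 Pool A arrays in 37 of them and above all 3 in 15, where the shares over all strains were 38.6% and 27.4%. No respiratory strain differed by 1 log2 unit or more, and only 1.91% of all strains did. The highest difference was that of ATP2, at 0.41 ± 0.19, and ATP2, CYC3 and COX18 were the 3 strains (4.17%) above the smallest dilution step of 0.33, as 9.64% of all strains were. Below minus that step lay 25 strains (34.7%), against 21.6% of all. None of the 72 had both tags above that step, as 4.04% of all strains did, and 10 had both below minus that step, as 7.46% of all did. The negative call nearest to 0 among all strains was -0.615, so no strain was called for a negative difference as small as that step. The designed steps are taken as positive, and the positive call nearest to 0 was not worked out here.

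**Figure D1:**
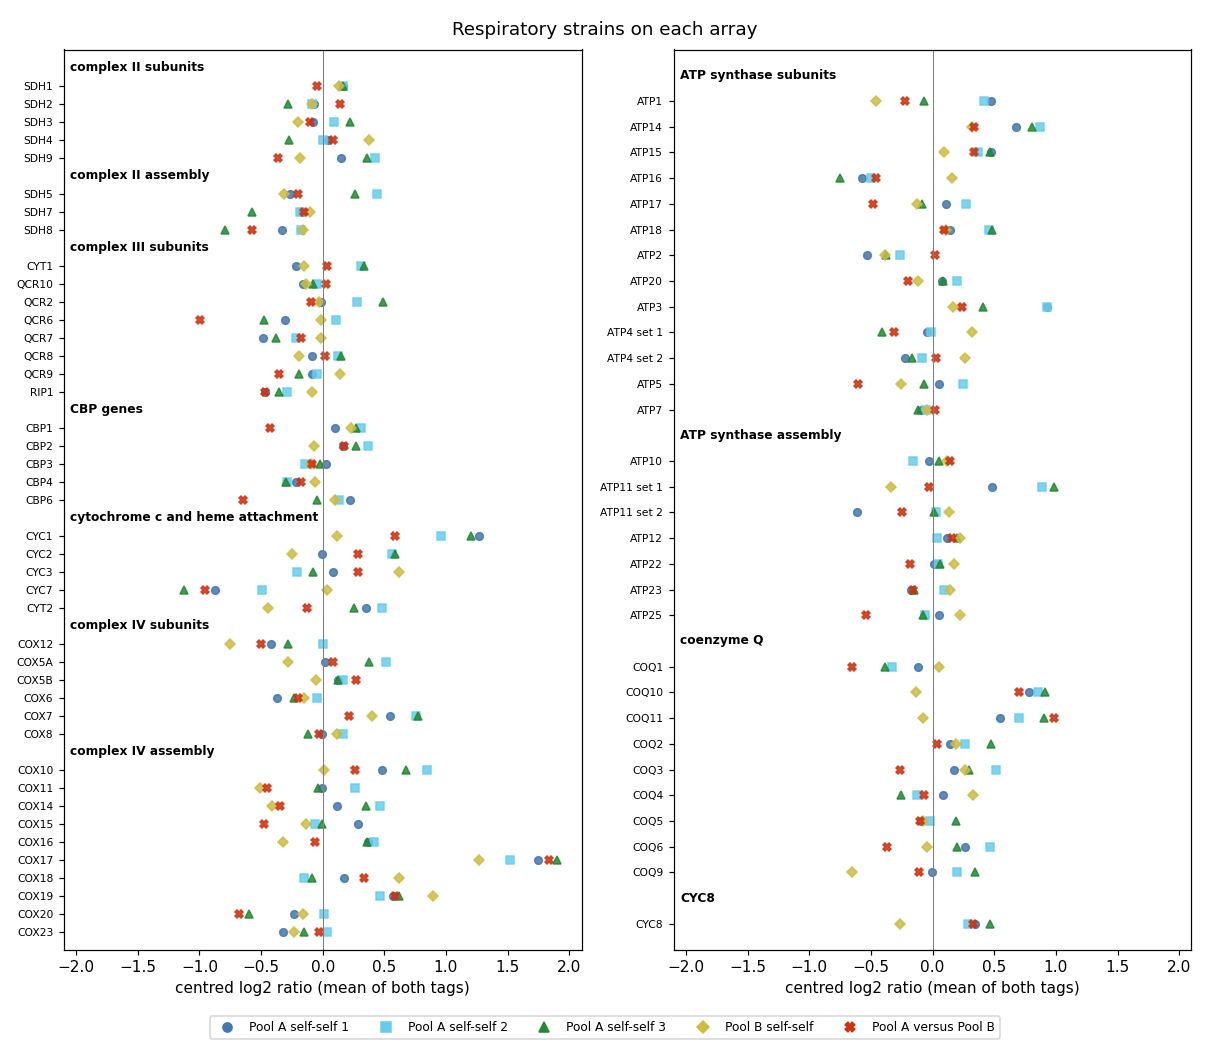
Centred log2 ratio (mean of both tags, horizontal axis) of the 72 strains on each of the 5 arrays, grouped by complex, with 1 symbol per array. COX17 stands far to the right on all 5, and the crosses of the mixed array lie left of all 3 Pool A symbols in 37 strains.

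Complex II, succinate dehydrogenase, oxidises succinate in the citric acid cycle. Its 8 strains had a median difference of -0.16 and ran from -0.68 to 0.29. SDH9 (YJL045W), a paralog of the flavoprotein gene SDH1, read 0.15, 0.42 and 0.36 on the 3 Pool A arrays, -0.19 on the Pool B array and -0.37 on the mixed array. The mixed array thus lay below every Pool A value, and the difference of -0.68 ± 0.20 was called (limma adjusted p = 0.0332). Its tags read alike, -0.60 by its first tag and -0.75 by its second, although neither was called alone, and with Pool B in both channels the strain differed by -0.50 ± 0.20. SDH1 itself, the main flavoprotein, differed by -0.21 ± 0.19, and its tags disagreed: the first differed by -0.80, a call, and the second by 0.38.

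The other complex II strains were not called. SDH2, the iron-sulfur subunit, read -0.069, -0.087 and -0.28 on the 3 Pool A arrays, -0.09 on the Pool B array and 0.14 on the mixed array, and its difference of 0.29 ± 0.19 was the highest of the complex. The membrane anchor genes SDH3 and SDH4 differed by -0.18 ± 0.20 and 0.16 ± 0.20. SDH5, SDH7 and SDH8, which attach flavin to the flavoprotein, mature the iron-sulfur subunit and hold the flavoprotein before assembly, differed by -0.35 ± 0.22, 0.16 ± 0.20 and -0.15 ± 0.22. Their Pool A arrays varied more than most, with SDs of 0.37, 0.23 and 0.32 (n = 3). In SDH7 the tags opposed each other, at -0.41 and 0.72.

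Complex III, the cytochrome bc1 complex, had 8 subunit strains with a median difference of -0.10. QCR6 (YFR033C), the acidic hinge subunit next to cytochrome c1, gave the lowest of them. It read -0.30, 0.11 and -0.48 on the 3 Pool A arrays, -0.014 on the Pool B array and -0.996 on the mixed array, and its difference of -0.77 ± 0.21 was called (limma adjusted p = 0.0252). The first tag carried it: this tag read -0.77, -0.50 and -1.49 on the 3 Pool A arrays, -0.055 on the Pool B array and -2.34 on the mixed array, so that the mixed array lay below every Pool A array while the Pool B array lay above all of them. The second tag differed by -0.13. The call ended without Pool A replicate 1 or 2. It also ended with arrays scaled to one spread, with quantile normalization and with all 4 self-self arrays as the reference.

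The other complex III strains were not called. RIP1, the Rieske iron-sulfur protein gene, read -0.47, -0.29 and -0.35 on the 3 Pool A arrays, -0.091 on the Pool B array and -0.47 on the mixed array, with the mixed array at the lower edge of the Pool A range. CYT1, which encodes cytochrome c1, differed by -0.11 ± 0.21 and read -0.22, 0.31 and 0.34 on the 3 Pool A arrays, -0.15 on the Pool B array and 0.037 on the mixed array. The core protein gene QCR2 differed by -0.35 ± 0.21. Of the small subunit genes, QCR7 (0.18 ± 0.19) was the highest, QCR10 differed by 0.13 ± 0.19 and QCR8 by -0.046 ± 0.19. QCR9 differed by -0.25 ± 0.19, from tags that pointed apart (0.19 and -0.69).

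The 5 CBP genes act on cytochrome b, the complex III subunit encoded in mitochondria, and held 2 of the 8 calls. CBP6 (YBR120C), whose product works with that of CBP3 in cytochrome b synthesis, read 0.22, 0.14 and -0.049 on the 3 Pool A arrays, 0.10 on the Pool B array and -0.65 on the mixed array, a difference of -0.75 ± 0.20 (limma adjusted p = 0.0173). CBP1 (YJL209W), needed for stability of the cytochrome b messenger, read 0.10, 0.31 and 0.27 on the 3 Pool A arrays, 0.23 on the Pool B array and -0.43 on the mixed array, a difference of -0.65 ± 0.19 (limma adjusted p = 0.0379). In both strains the mixed array stood alone below the other 4 arrays. In both it was the second tag that was called, at -1.25 and -1.02, while the first tag differed by -0.24 and -0.28. The Pool B array differed from Pool A by -0.0013 and 0.0058 in these 2 strains, the smallest departures among the 8 called.

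CBP3, the partner of CBP6, had 6 spots per tag and read 0.024, -0.14 and -0.026 on the 3 Pool A arrays, -0.093 on the Pool B array and -0.088 on the mixed array, a difference of -0.039 ± 0.19. CBP2, a splicing factor for a cytochrome b intron, differed by -0.096 ± 0.19, and CBP4, an assembly factor, by 0.094 ± 0.19.

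Cytochrome c carries electrons from complex III to complex IV, and its 5 strains had no call on the mixed array. Their self-self values lay far apart. CYC1 (YJR048W), the gene of the main isoform, read 1.27, 0.96 and 1.20 on the 3 Pool A arrays, 0.12 on the Pool B array and 0.58 on the mixed array. CYC7 (YEL039C), the gene of the minor isoform, lay on the other side of 0 in Pool A, with -0.87, -0.49 and -1.13 on the 3 Pool A arrays, 0.031 on the Pool B array and -0.95 on the mixed array. The 2 isoform strains therefore differed by -0.56 ± 0.20 and -0.12 ± 0.22 between the mixed array and Pool A, while their ratios on the Pool A arrays themselves were 1.14 ± 0.16 (SD, n = 3) and -0.83 ± 0.32 (SD, n = 3).

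CYC3, the heme lyase that attaches heme to cytochrome c, differed by 0.36 ± 0.20, from a second tag that was called positive (0.95) and a first at -0.24. Its second tag read 0.26, 0 and 0.11 on the 3 Pool A arrays, 1.34 on the Pool B array and 1.08 on the mixed array, high on the Pool B array as well. CYT2, the lyase for cytochrome c1, differed by -0.49 ± 0.19, and CYC2, a mitochondrial flavoprotein of the same step, by -0.097 ± 0.22. The CYC2 tags opposed each other, at 0.45 and -0.64. CYC8 has a name of the same pattern but is not a gene of cytochrome c itself or of its heme attachment. It encodes a general transcriptional corepressor, and read 0.34, 0.28 and 0.46 on the 3 Pool A arrays, -0.26 on the Pool B array and 0.33 on the mixed array.

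Complex IV, cytochrome c oxidase, had 6 subunit strains without a call and 10 assembly strains with 1. The subunit genes ran from -0.48 (COX7) to 0.14 (COX5B), with a median of -0.13. COX5A and COX5B encode alternative forms of 1 subunit, used with and without ample oxygen. COX5A read 0.019, 0.51 and 0.37 on the 3 Pool A arrays, -0.28 on the Pool B array and 0.08 on the mixed array, and COX5B 0.12, 0.16 and 0.12 on the 3 Pool A arrays, -0.053 on the Pool B array and 0.27 on the mixed array. The mixed array lay inside the Pool A range in COX5A and above it in COX5B, where the tags opposed each other (-0.37 and 0.64). COX7 read 0.55, 0.75 and 0.78 on the 3 Pool A arrays, 0.40 on the Pool B array and 0.22 on the mixed array, lowest on the mixed array. COX6, COX8 and COX12 differed by 0.016 ± 0.20, -0.047 ± 0.20 and -0.27 ± 0.20.

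The assembly factors of complex IV had the lowest median of any group, -0.41, with 6 of 10 strains below 0, where 58% of all strains lay. COX14 (YML129C), which couples synthesis of the Cox1 subunit to assembly, was the 1 called. It read 0.12, 0.46 and 0.35 on the 3 Pool A arrays, -0.41 on the Pool B array and -0.35 on the mixed array, a difference of -0.66 ± 0.20 (limma adjusted p = 0.0415). Its second tag carried this (-1.05), the first differed by -0.26, and the Pool B array differed from Pool A by -0.72 ± 0.20. With the Pool B array as the reference the COX14 difference was 0.068.

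The heme A enzymes COX10 and COX15 differed by -0.41 ± 0.20 and -0.55 ± 0.20, and COX11, which delivers copper, by -0.53 ± 0.20. In these 3 strains both tags lay below 0. COX16, an assembly factor, read 0.37, 0.42 and 0.36 on the 3 Pool A arrays, -0.32 on the Pool B array and -0.063 on the mixed array, a difference of -0.44 ± 0.19 that came from its second tag alone (0.032 and -0.92), where the second was called. COX18 and COX20 act on the Cox2 subunit. COX18, which exports its tail across the inner membrane, gave the highest value of the group, 0.35 ± 0.20, with the tags close together at 0.31 and 0.40. COX20, its chaperone, differed by -0.41 ± 0.21. The copper and redox proteins COX17, COX19 and COX23 differed by 0.12 ± 0.20, 0.037 ± 0.19 and 0.12 ± 0.20.

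**Figure D2:**
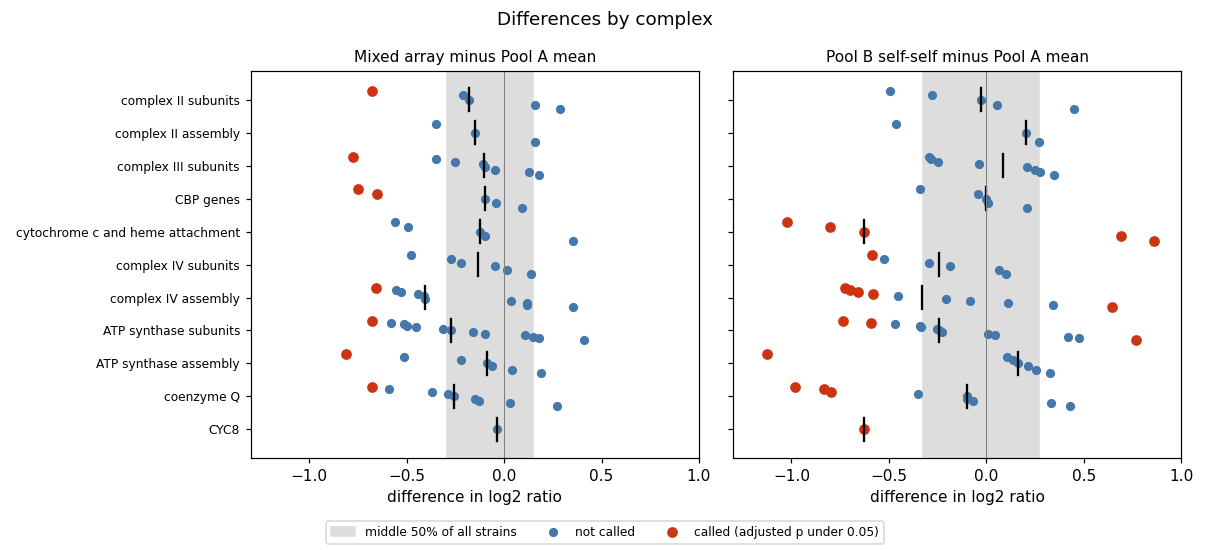
Difference in log2 ratio from the Pool A mean (horizontal axes) for each strain by complex, for the mixed array on the left and the Pool B self-self array on the right. Red points were called, black bars are group medians and the grey band holds the middle 50% of all strains. The mixed array gives 8 red points, all left of 0, and the Pool B array gives 19, of which 4 lie right of 0.

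The ATP synthase strains numbered 20, with 13 for subunits and 7 for assembly or expression. The subunit strains had a median of -0.27, and 1 of them was called. ATP5 (YDR298C), the stalk subunit that confers oligomycin sensitivity, read 0.049, 0.24 and -0.067 on the 3 Pool A arrays, -0.26 on the Pool B array and -0.60 on the mixed array. The difference of -0.68 ± 0.20 (limma adjusted p = 0.0331) came from both tags, -0.79 by its first tag and -0.57 by its second, of which the first was called. ATP17, a membrane subunit, differed by -0.58 ± 0.20 (limma adjusted p = 0.0742), also with both tags below 0.

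The 5 subunits of the catalytic head and central stalk had values on both sides of 0. The alpha subunit strain ATP1 read 0.48, 0.42 and -0.069 on the 3 Pool A arrays, -0.46 on the Pool B array and -0.22 on the mixed array, and the beta subunit strain ATP2 -0.53, -0.27 and -0.37 on the 3 Pool A arrays, -0.38 on the Pool B array and 0.017 on the mixed array. Their differences were -0.50 ± 0.21 and 0.41 ± 0.19, with the mixed array below every Pool A value in the first and above every one in the second. The strain of the gamma subunit, ATP3, differed by -0.51 ± 0.21, that of delta, ATP16, by 0.15 ± 0.19 and that of epsilon, ATP15, by -0.096 ± 0.19. In ATP15 the tags read -0.68 and 0.49. None of the 5 was called.

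The stator and membrane subunit strains included ATP14, whose tags stood furthest apart within the ATP synthase. Its second tag read 1.18, 1.80 and 1.53 on the 3 Pool A arrays, 0.31 on the Pool B array and 0.28 on the mixed array, a called difference of -1.22, and its first differed by 0.32, so the strain value was -0.45 ± 0.19. ATP7, ATP18 and ATP20 differed by 0.11 ± 0.19, -0.27 ± 0.20 and -0.32 ± 0.19. The 2 tag sets of ATP4, which encodes the stator subunit b, differed by -0.16 ± 0.20 and 0.18 ± 0.19. They thus fell on either side of 0, and neither was called.

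Among the 7 assembly strains the 2 tag sets of ATP11, a chaperone gene of the beta subunit, gave different readings, and that gap was not tested. Tag set 1 read 0.48, 0.89 and 0.99 on the 3 Pool A arrays, -0.34 on the Pool B array and -0.026 on the mixed array. Its difference of -0.81 ± 0.21 was the lowest of all 72 (limma adjusted p = 0.0162), with -0.34 by its first tag and -1.28 by its second. Tag set 2 of the same gene read -0.61, 0.025 and 0.01 on the 3 Pool A arrays, 0.13 on the Pool B array and -0.25 on the mixed array and differed by -0.059 ± 0.22. The called tag set was high on the Pool A arrays (0.79 ± 0.27 (SD, n = 3)) and near 0 on the mixed array, and the Pool B array, at -0.34, lay lower still. The call ended with the Pool B array in the reference, and with that array alone as the reference the difference turned to 0.31.

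The other factors were not called. ATP12, the chaperone of the alpha subunit, differed by 0.043 ± 0.19. ATP10 and ATP23, which act on the mitochondrially encoded subunit a, differed by 0.19 ± 0.19 and -0.085 ± 0.20. ATP22, needed for synthesis of that subunit, differed by -0.22 ± 0.19 with tags at 0.35 and -0.79, of which the second was called. ATP25, which acts on the rotor ring subunit, differed by -0.51 ± 0.19 through its first tag (-0.91), which was called.

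Coenzyme Q, or ubiquinone, is the lipid carrier between complexes II and III, and 9 strains of its synthesis and handling had a median difference of -0.26. COQ6 (YGR255C), a ring hydroxylase gene, read 0.26, 0.46 and 0.20 on the 3 Pool A arrays, -0.043 on the Pool B array and -0.37 on the mixed array, a difference of -0.68 ± 0.20 (limma adjusted p = 0.033). Its second tag accounted for it, with 0.46, 1.03 and 0.62 on the 3 Pool A arrays, -0.20 on the Pool B array and -0.54 on the mixed array. The first tag differed by -0.11. In COQ3 and COQ9 the second tag was also called negative, without a call of the strain. COQ3, a methyltransferase gene, differed by -0.59 ± 0.20 and COQ9 by -0.29 ± 0.20, with second tags at -0.94 and -0.88. Their first tags differed by -0.24 and 0.31, so the tags of COQ9 opposed each other.

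COQ11 had the widest gap between tags of all 72 strains. Its second tag read 1.01, 1.01 and 1.56 on the 3 Pool A arrays, 0.76 on the Pool B array and 2.41 on the mixed array, a called positive difference of 1.22, whereas its first read 0.081, 0.38 and 0.25 on the 3 Pool A arrays, -0.92 on the Pool B array and -0.43 on the mixed array, a difference of -0.67. The strain value of 0.27 ± 0.20 lies between readings of opposite sign. The head of the pathway, COQ1, which builds the isoprenoid tail, differed by -0.37 ± 0.20, and COQ2, which joins the tail to the ring, by -0.26 ± 0.20. COQ4 and the methyltransferase gene COQ5 differed by 0.028 ± 0.20 and -0.13 ± 0.20. COQ10, a coenzyme Q binding protein gene, read 0.78, 0.86 and 0.91 on the 3 Pool A arrays, -0.13 on the Pool B array and 0.70 on the mixed array, with only the Pool B array apart from the rest.

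Tag by tag, 3 of the 144 respiratory tags were called positive and 14 negative on the mixed array, against 1.87% and 6.53% of all tags, or 8.4% together. The 3 positive tags were the second tags of COQ11 (1.22), CYC3 (0.95) and COX17 (0.90), and in each the first tag lay below 0. Of the negative tags 10 were second and 4 first, or 13.9% and 5.56% of the respiratory tags of each block. Over all tags 7.75% of the second and 5.31% of the first were called negative. The 14 belonged to 14 strains, so that no strain had both tags called, as 0.569% of all strains had upward, 0.551% downward and 0.147% in opposite directions. Both tags lay below 0 in 30 strains, both above in 6 and on opposite sides in 36. These were 41.7%, 8.33% and 50% of the respiratory strains, against 29.4%, 22.4% and 48.2% of all strains. Without Pool A replicate 1 no respiratory tag was called, and without replicate 2 7 were. These fits called 0.11% and 4.64% of all tags.

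**Figure D3:**
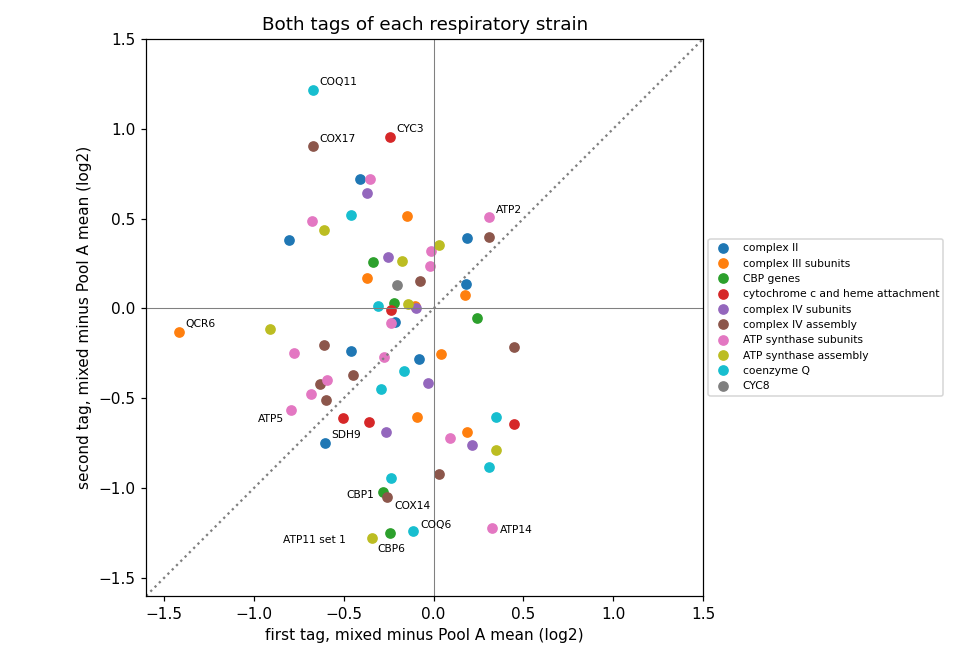
Difference of the mixed array from the Pool A mean by the first tag (horizontal) and the second tag (vertical), in log2 units, for the 72 strains coloured by complex, with the dotted line where both tags are equal. The points spread around the origin with 30 in the lower left and 6 in the upper right, and the strains furthest out, such as COQ11, QCR6, CBP6 and ATP14, lie far from the dotted line.

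The self-self arrays show what each strain's tags returned when both dyes labelled the same pool. Of the 72 strains, 24 were called above 0 and 10 below on the Pool A arrays by limma, against 24.3% and 20.6% of all strains, or 44.9% together. Without Pool A replicate 3 the count was 21 in place of 34, and without centring 12. These settings called 27.7% and 15.3% of all strains. The 2 tag blocks leaned in opposite directions. In the first block 11 respiratory tags (15.3%) were called above 0 and 21 (29.2%) below, with a median of -0.15, where 13.9% and 41.4% of all first tags were called and their median was -0.20. In the second block 35 (48.6%) were called above 0 and 1 (1.39%) below, with a median of 0.29, where 37.6% and 3.73% of all second tags were called and their median was 0.18. Over both blocks 25.7% of all tags were called above 0 and 22.5% below, or 48.3% together.

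COX17 (YLL009C), a copper chaperone gene, departed most. Its strain value was 1.72 ± 0.19 (SD, n = 3) in Pool A, and its second tag alone read 2.77, 2.49 and 2.92 on the 3 Pool A arrays, 2.61 on the Pool B array and 3.63 on the mixed array. Each of its tags had 6 spots, and the second tag's spots ran from 2.71 to 2.90 on Pool A replicate 1, 2.55 to 2.66 on the Pool B array and 3.38 to 3.85 on the mixed array. No spot of this tag read under 2.21 on any of the 5 arrays, whichever pools were compared. The first tag was lower, at 0.72, 0.55 and 0.88 on the 3 Pool A arrays, -0.078 on the Pool B array and 0.045 on the mixed array.

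In 5 strains both tags were called above 0 in Pool A by limma, and in none both below, against 6.36% and 2.13% of all strains. These were COX17, CYC1, COX10, COQ10 and ATP11 tag set 1. The CYC1 tags read 1.27 ± 0.23 (SD, n = 3) and 1.02 ± 0.14 (SD, n = 3). Those of COX10 read 1.00 ± 0.12 (SD, n = 3) and 0.33 ± 0.25 (SD, n = 3), and those of COQ10 1.38 ± 0.035 (SD, n = 3) and 0.31 ± 0.13 (SD, n = 3). In 7 further strains the tags were called on opposite sides of 0, as in 14.3% of all strains. These were QCR6, CBP6, COX11, COX23, ATP20, ATP22 and ATP4 tag set 2, each with the first tag below 0 and the second above. The first tag of COQ10 was among the steadiest here, with 1.36, 1.42 and 1.36 on the 3 arrays.

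Of the 22 tags called below 0, 21 were first tags, and over all tags 2252 of the 2455 called below 0 were first tags. The first tag of CYC7 read -1.74, -1.23 and -2.26 on the 3 Pool A arrays, 0.17 on the Pool B array and -1.98 on the mixed array, while its second stayed near 0 at 0.084 ± 0.14 (SD, n = 3). ATP16, the delta subunit strain, had a first tag at -0.97 ± 0.23 (SD, n = 3) and a strain value of -0.61 ± 0.13 (SD, n = 3), the next lowest after CYC7 (-0.83 ± 0.32 (SD, n = 3)). The tags that varied most over the 3 arrays came from both blocks, with an SD of 0.60 for the first tag of COX20, 0.58 for that of SDH8, 0.56 for that of ATP3 and 0.56 for the second tag of SDH5 (n = 3 each).

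**Figure D4:**
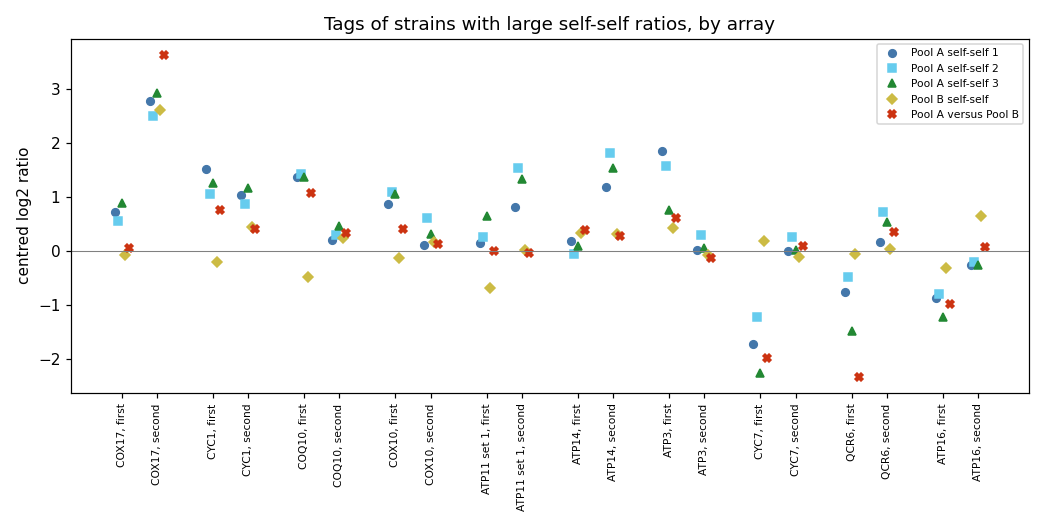
Centred log2 ratio (vertical axis) of the first and second tags of 10 strains on each array, with 1 symbol per array. COX17's second tag lies above 2 on all 5 arrays, the first tags of CYC1, COQ10 and COX10 are high on the Pool A arrays and below 0 on the Pool B array, and the first tag of CYC7 is below -1 on the Pool A arrays and the mixed array but not on the Pool B array.

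The Pool B self-self array gave other ratios for some of the same strains. Against the Pool A mean it called 4 of the 72 strains positive and 15 negative, where 8.54% and 13.3% of all strains were called. It read above all 3 Pool A arrays in 23 strains and below all 3 in 34, against 36.6% and 37.9% of all strains. Without Pool A replicate 2 there were 11 calls in place of 19, and 13.4% of all strains were called. By tags the counts were 13 and 22 of 144, against 7.89% and 13.3% of all tags, or 21.2% together. Without Pool A replicate 1 no tag was called, respiratory or other. This contrast shares the Pool A arrays with the one above. All 5 cytochrome c strains were called. CYC1 differed by -1.02 ± 0.20 and CYT2 by -0.80 ± 0.19, CYC2 by -0.63 ± 0.22, CYC3 by 0.69 ± 0.20 and CYC7 by 0.86 ± 0.22, so that 3 fell and 2 rose, in limma. CYC1 and CYC7, which stood on opposite sides of 0 in Pool A, read 0.12 and 0.031 on the Pool B array.

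In complex IV assembly, COX10, COX11, COX14 and COX16 fell by limma and COX18 rose, at -0.66, -0.58, -0.72, -0.70 and 0.64. COX5A (-0.58 ± 0.21) was the only complex IV subunit called. In the coenzyme Q group COQ10 (-0.98 ± 0.19), COQ9 (-0.83 ± 0.20) and COQ11 (-0.80 ± 0.20) fell. In the ATP synthase ATP1 (-0.74 ± 0.21), ATP3 (-0.59 ± 0.21) and ATP11 tag set 1 (-1.13 ± 0.21) fell and ATP16 (0.77 ± 0.19) rose. CYC8 (-0.63 ± 0.19) fell too. No strain of complex II, complex III or the CBP genes was called, and their differences ran from -0.50 (SDH9) to 0.45 (SDH4). ATP11 tag set 1 was the only respiratory strain with both tags called in 1 direction, at -1.03 and -1.22, where 1.86% of all strains had both tags called downward and 0.68% upward. COX7 and COX20 had both tags called in opposite directions, at 0.72 and -1.31 and at 0.93 and -0.71, as 1.78% of all strains did, and their strain values of -0.30 ± 0.19 and 0.11 ± 0.21 were not called. For COQ10, the first tag (-1.88) and not the second (-0.082) carried the difference.

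The called strains of the 2 contrasts can be set side by side. Of the 8 strains called on the mixed array, COX14 and ATP11 tag set 1 were also called on the Pool B array, in the same direction. CBP1, CBP6 and QCR6 differed on the Pool B array by 0.0058, -0.0013 and 0.21, and SDH9, ATP5 and COQ6 by -0.50, -0.33 and -0.35. Of the 17 strains called only on the Pool B array, the mixed array lay closest to the Pool A mean in CYC8 (-0.037), CYC2 (-0.097), CYC7 (-0.12), COQ10 (-0.15) and ATP16 (0.15). The CYC2 value is the mean of opposed tags, at 0.45 and -0.64. Whether date, pool or array set these strains apart was not tested.

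By position, the 72 strains lie on 15 of the chromosomes, with 9 each on chromosomes IV and XII. The 9 respiratory strains of chromosome IV were SDH4, SDH7, QCR7, COX20, ATP16, ATP17, ATP5, ATP22 and COQ4, with a median difference of 0.028 and a range from -0.68 (ATP5) to 0.18 (QCR7). None was called positive and ATP5 was the 1 called negative, where 1.54% and 5.84% of all strains were.

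Other genes of respiration, outside the symbols above, were read from a separate list of 52 symbols, of which 49 had a strain. These include translation activators, assembly factors, alternative NADH dehydrogenases and the HAP transcription factors. They gave 0 positive and 3 negative calls in limma, HAP2, HAP5 and SHY1, with a median difference of -0.071. The 3 were 6.12% of these strains, close to the 5.84% of all strains called negative, and 1.54% of all were called positive. SHY1, a complex IV assembly factor, differed by -0.69, and HAP5 and HAP2, subunits of the activator of respiratory genes, by -0.63 and -0.62. On the Pool B array 5 of the 49 (10.2%) were called positive and 7 (14.3%) negative, against 8.54% and 13.3% of all strains.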

How the data were processed

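Barcodes of pooled yeast heterozygous deletion strains were measured on 5 two-colour arrays. The authors deposited 1 log2 ratio per spot for 22575 spots, of which 18794 carry a gene name. That the values are log2 rather than another base was found from the values: 2 raised to each gives a number with 3 decimals in 100% of spots. Which normalization and background treatment were used is not given in the sources used here. Per the labels' protocols, tags were amplified from genomic DNA with labelled primers for 50 cycles.

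The median over named spots was subtracted from every array. Spots of 1 tag were averaged, tags were assigned to strains by gene and block, and both tags of a strain were averaged. limma 3.58.1 in R 4.3.3 was fitted with 3 groups to all 5444 strains and to all 10888 tags, with Benjamini-Hochberg adjustment at 0.05, two-sided. The code was tested on simulated data. Gene names came from the platform annotation.

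The members, the lists and the tests were chosen with earlier results of these data known. Named in detail were strains called on the mixed array or with both tags called in any contrast, in the same or opposite directions, the highest and lowest of each role group in both contrasts, the member furthest from 0 in Pool A, all with several tag sets, the isoform pairs and the 5 widest tag gaps. Further strains were given as values only. SDH9 was put with the subunits of complex II, as a paralog of SDH1, although the grouping first written had it with assembly factors. The counts of strains outside the Pool A range and of both tags past the smallest step, and the strains drawn or labelled in the plots of tags, were chosen after values were seen. Alternatives tried were the centring, scaling, quantile normalization, other reference arrays, robust eBayes, the median of spots, both tags required and each Pool A array left out. No tag sequence was used here.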

Additional observations from a re-analysis of the deposited data

Results flagged for a closer look

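In 19 respiratory strains the ratio of a pool against itself differed between the Pool B array and the 3 Pool A arrays in limma, where 21.9% of all strains did. Values are log2 differences, positive where the ratio was higher on the Pool B array. Cytochrome c and heme attachment strains were CYC1, CYC2, CYC3, CYC7 and CYT2, with -1.02, -0.626, 0.689, 0.86 and -0.805. Complex IV strains were COX5A (-0.585), COX10 (-0.661), COX11 (-0.583), COX14 (-0.724), COX16 (-0.7) and COX18 (0.645). ATP synthase strains were ATP1 (-0.736), ATP3 (-0.591), ATP16 (0.766) and ATP11 tag set 1 (-1.13). Coenzyme Q strains were COQ9 (-0.832), COQ10 (-0.982) and COQ11 (-0.797), and CYC8 was at -0.626. The Pool B group holds 1 array with a title date of its own, so pool, date and array cannot be told apart.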

How the results depend on the processing

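The 8 negative strain calls on the mixed array were also 8 with tag blocks centred separately and with robust eBayes, and 7 with the median of a tag's spots. Over all strains these settings called 7.6%, 7.37% and 6.63%, against 7.38% in the main fit. The 8 became 3 without centring, 2 after scaling arrays to equal spread, 2 with quantile normalization, 0 with all 4 self-self arrays as the reference and 0 when both tags had to be called. In that order 4.17%, 4.15%, 5.22%, 0.606% and 1.12% of all strains were called. With the Pool B self-self array alone as the reference 5 strains were called, 2 positive (COQ10 and COQ11) and 3 negative (QCR6, CYC7 and ATP25). There 2.48% of all strains were called positive and 5.2% negative. Leaving out 1 Pool A replicate gave 1 to 7 calls, and ATP11 tag set 1 kept its call in all 3 of these fits and was the 1 left without replicate 2. The same fits called 3.49% to 8.82% of all strains. The 17 called tags became 3 without centring and 0 with all 4 self-self arrays, and 0 to 14 with a replicate left out. The shares of all tags called were 2.76%, 0.661% and 0.11% to 8.53%. The 19 strains called on the Pool B array became 33 without centring, all negative, 12 with scaling, and 11 to 23 with a replicate left out, and its 35 tags became 0 to 24 in the last case. Over all strains 34.9% were called without centring (34.8% negative), 13.1% with scaling and 13.2% to 31.3% with a replicate left out. Over all tags the last case gave 0% to 15.2%. With a replicate left out the lone arrays are still assumed to vary like Pool A, on fewer arrays. The 34 strains called on the Pool A arrays became 12 without centring and 21 to 37 with a replicate left out, and the 68 tags became 42 and 49 to 56. Over all strains the shares called were 15.3% without centring and 27.7% to 46.6% with a replicate left out. Without centring 26.4% of all tags were called, and without replicate 1, where 56 respiratory tags were called, 41.8% of all tags. For Pool B tags, the split of 13 positive and 22 negative calls became 0 and 36 without centring, 21 and 23 with separate blocks, and 22 and 25 with quantile normalization. Over all tags the shares were 0.386% and 23.6% without centring, 17% and 15.4% with separate blocks, and 15.8% and 16.3% with quantile normalization. Without centring the median difference of all strains was -0.49 on the mixed array, against -0.064 with it, and -0.72 against -0.028 on the Pool B array.

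Leaving out the centring moves the difference of every strain by the same amount, and the causes of changes under the other settings were not tested. Among named strains the difference on the mixed array changed sign as follows. Without centring these were SDH2 (-0.14), SDH4 (-0.27), SDH7 (-0.27), QCR7 (-0.24), CBP4 (-0.33), CYC3 (-0.0678), COX5B (-0.29), COX17 (-0.31), COX18 (-0.0689), COX23 (-0.31), ATP16 (-0.27), ATP2 (-0.0149), ATP4 tag set 2 (-0.24), ATP10 (-0.23), COQ11 (-0.15) and COQ4 (-0.40), all positive before and within the shift of all strains. With the Pool B array as the reference they were SDH4 (-0.29), SDH5 (0.11), SDH7 (-0.0469), CYT1 (0.19), QCR7 (-0.17), CBP2 (0.25), CBP4 (-0.12), CYC1 (0.47), CYC3 (-0.33), COX5A (0.36), COX10 (0.26), COX11 (0.0561), COX14 (0.0678), COX18 (-0.29), ATP1 (0.24), ATP14 (0.0163), ATP16 (-0.62), ATP4 tag set 2 (-0.24), ATP11 tag set 1 (0.31), COQ10 (0.83), COQ4 (-0.40) and CYC8 (0.59). With all 4 self-self arrays they were ATP16 (-0.0403), COQ10 (0.0972), COQ4 (-0.0786) and CYC8 (0.12). With quantile normalization they were RIP1 (0.0122), CBP2 (0.0316), CYC7 (0.19), COX8 (0.00825), COX17 (-0.46), ATP11 tag set 2 (0.00872) and CYC8 (0.0443). With separate blocks it was CYC8 (0.0037). With 1 Pool A replicate left out they were CYC7 (-0.27 to 0.047) and COX8 (-0.12 to 0.0294) without replicate 2, ATP11 tag set 2 (-0.27 to 0.0494) without replicate 2 or 3, and COQ4 (-0.0506 to 0.12) and CYC8 (-0.0764 to 0.0117) without replicate 3, each with its lowest and highest value over the 3 fits. Of these strains only COX14 and the ATP11 tag set 1 had been called. In the other comparisons of named strains 394 kept direction and side of the threshold, 43 lost their call and 2 gained one. The number of arrays limits precision, and no depth is defined for them. No paired analysis was possible because the groups compared share fewer than 2 replicate numbers.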
